A study of Mus musculus with 6 samples.

Results

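The control-only regions near transcription starts were the places on chromosomes 1 to 19 with a called peak of open chromatin in every library of control mice and in no library of HADA mice (HADA, high altitude de-acclimatization). Peaks of all 6 lists that shared 1 bp were merged, and a region was kept when it held a peak in 3 of 3 control lists, in 0 of 3 HADA lists, and at least 1 peak summit within 3 kb of an annotated transcript start. The rule left 394 of 60298 merged regions. They made up 1.41% of the 27924 regions near starts. The members were thus selected on the group contrast itself, so their presence in control and absence in HADA is a description, and no test was run on it.

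The assay was ATAC-seq, which marks open DNA by transposase cutting, on unsorted peripheral blood leukocytes after red cell lysis. The labels name white blood cells and their protocol leukocytes, whereas the study's results text speaks of mononuclear cells, a preparation that holds few neutrophils. In each library 31 to 37 of the 40 mature neutrophil list genes had a peak near a start, and 11 to 15 of the 23 neutrophil granule list genes. No share over all genes was set beside these counts, so they do not settle which preparation was used. Both groups were male C57BL/6j mice bought at an age of 8 weeks. The HADA mice had spent 28 days in a hypobaric chamber at a simulated altitude of 6 km before return to normal oxygen, and the control mice stayed at normal oxygen. The time between return and blood sampling is not given in the labels, and nothing there says whether the 3 libraries of a group came from separate mice.

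Promoters of genes in steady use are open in most cells, whereas regions a little upstream or downstream of a start, often within the first intron, tend to be enhancers that open in 1 lineage. Blood leukocytes are a mixture of lymphocytes and myeloid cells, chiefly neutrophils and monocytes. Enhancers of myeloid cells are typically bound by C/EBP, AP-1 and PU.1 family factors. In such a mixture, fewer cells of a type and less accessibility per cell cannot be told apart.

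The heights below rest on the summit pileup, the number of fragments stacked at the highest point of a peak, divided by the genome-wide background pileup of that library. The background was 1.69, 2.05 and 1.83 in control 1 to 3 and 2.34, 1.99 and 2.27 in HADA 1 to 3. It stands for relative depth, so the HADA libraries 1 and 3 were deeper than each control library. Control 3 stood apart from the other libraries: it held 32533 peaks on these chromosomes against 39176 to 44102 in the others, and a peak near a start for 11 of 21 B cell list genes against 20 or 21 in each of the others.

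Reference sequences (GRCm39, plus strand, 5′ to 3′) at the summits of members with an AP-1 or C/EBP consensus are shown first, because these motifs were more frequent in members than in other regions near starts. AU019990 and Gm59848 are tall members with lncRNA starts only. Gga1 is the third tallest member by its lowest control height, and Ccl9, Fpr2 and Nfil3 are genes of the myeloid lists. The window at Cd33, the gene of a sialic acid-binding myeloid receptor, lies in an intron and 1098 bp upstream of the nearest annotated start. Each window holds 201 bases centred on a summit, and capitals mark AP1 (TGANTCA) and CEBP (TTGCNNAA) matches on either strand.
AU019990, chr2:132441119-132441319: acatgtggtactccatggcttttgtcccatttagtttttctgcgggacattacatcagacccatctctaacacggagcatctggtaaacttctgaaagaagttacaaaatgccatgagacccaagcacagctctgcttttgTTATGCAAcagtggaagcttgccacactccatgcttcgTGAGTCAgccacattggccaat
Gm59848, chr16:95632844-95633044: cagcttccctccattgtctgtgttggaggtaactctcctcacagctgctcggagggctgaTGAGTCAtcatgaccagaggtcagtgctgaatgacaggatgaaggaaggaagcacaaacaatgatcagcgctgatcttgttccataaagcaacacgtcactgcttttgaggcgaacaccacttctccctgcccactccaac
Gga1, chr15:78763358-78763558: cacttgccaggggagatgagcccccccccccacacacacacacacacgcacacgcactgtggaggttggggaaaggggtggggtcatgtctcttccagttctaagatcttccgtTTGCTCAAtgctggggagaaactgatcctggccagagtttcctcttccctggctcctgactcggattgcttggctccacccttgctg
Ccl9, chr11:83468025-83468225: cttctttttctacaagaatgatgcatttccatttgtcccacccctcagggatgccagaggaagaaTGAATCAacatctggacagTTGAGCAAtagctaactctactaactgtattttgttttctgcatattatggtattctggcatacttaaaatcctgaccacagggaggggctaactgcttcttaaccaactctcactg
Fpr2, chr17:18110222-18110422: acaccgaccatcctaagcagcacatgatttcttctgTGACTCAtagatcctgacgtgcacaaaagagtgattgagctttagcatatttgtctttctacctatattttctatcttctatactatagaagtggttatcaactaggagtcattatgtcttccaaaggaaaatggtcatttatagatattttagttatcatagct
Nfil3, chr13:53139827-53140027: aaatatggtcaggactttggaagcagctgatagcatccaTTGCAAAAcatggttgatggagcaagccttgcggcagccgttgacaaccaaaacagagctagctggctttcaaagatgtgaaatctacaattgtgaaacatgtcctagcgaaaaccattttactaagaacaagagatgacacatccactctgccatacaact
Cd33, chr7:43188201-43188401: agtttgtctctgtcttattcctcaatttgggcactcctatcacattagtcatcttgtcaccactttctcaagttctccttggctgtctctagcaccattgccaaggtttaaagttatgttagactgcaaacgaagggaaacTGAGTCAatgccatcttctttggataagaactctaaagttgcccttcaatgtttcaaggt

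The Ccl9 window held both motifs, with the AP1 match centred 32 bp to the left of the summit and the CEBP match 12 bp to the left. In AU019990 the CEBP match was 45 bp and the AP1 match 82 bp to the right of the summit. The Gga1 match lay 18 bp from the summit. In the other windows the matches lay between 37 bp (Gm59848) and 61 bp (Fpr2) away.

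The 50 bases at the summits of the 5 members with the most copies in the genome are shown because these letters alone do not give 1 place in the genome. A longer read that reaches unique flanks can still be placed. The first is a repeat of a 6-base unit.
Gm31166, chr19:5591399-5591448: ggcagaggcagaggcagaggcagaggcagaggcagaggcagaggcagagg
Trim13, chr14:61834786-61834835: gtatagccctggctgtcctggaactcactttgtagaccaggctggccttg
Gm3507, chr17:15816486-15816535: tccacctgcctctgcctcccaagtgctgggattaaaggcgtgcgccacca
Fam118a, chr15:84909995-84910044: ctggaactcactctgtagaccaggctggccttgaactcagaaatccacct
Mertk, chr2:128615173-128615222: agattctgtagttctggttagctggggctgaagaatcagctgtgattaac

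The windows at Trim13 and Fam118a shared a run of 20 bases, which reads as part of the B1 family of short interspersed repeats. No repeat annotation was used here.

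Of the 394 members, 199 had a start of a protein-coding gene within 3 kb (50.5%). The share was 66.8% over all regions near starts, 79.2% over the 14701 regions with a peak in all 6 libraries (shared regions) and 52.6% over the 1703 HADA-only regions near starts. A lncRNA start was within reach of 49.2% of members and of 48.9% of all regions near starts. The members thus had fewer coding starts than shared regions, as the HADA-only regions did, and about as many lncRNA starts. The starts within reach belonged to 515 genes. These were 223 lncRNA genes, 206 protein-coding genes, 25 snoRNA genes, 23 processed pseudogenes, 12 unconfirmed transcripts of the TEC class, 10 miRNA genes and a few of other classes. Of the 515, 273 have only a provisional symbol of the form Gm and a number. Sensory receptor genes were counted as well. An olfactory receptor start was near 3 members (0.761%, exact binomial 95% interval 0.157 to 2.21), against 0.247% of all regions near starts. A vomeronasal receptor start was near 2 (0.508%, interval 0.0615 to 1.82), against 0.0645%. Both intervals include the background. The region near Or8u9 was a tall one among these, with pileups of 33, 34 and 69.

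Few members sat on the start itself. A summit lay within 100 bp of a start in 20.3% of members, against 47.0% of all regions near starts, 68.0% of shared regions and 28.1% of HADA-only regions. The median distance was 943 bp in members and 45 bp in shared regions. The main summit lay in an intron in 238 members, between genes in 59, in a noncoding exon in 53, in a UTR in 25 and in a coding exon in 19. Members were as often upstream of the named start (201) as at or downstream of it (193). Their sequence was also less rich in G and C. The median GC content of the 201 bases at the summit was 48.3%, against 54.7% over all regions near starts and 61.2% over shared regions.

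**Figure D1:**
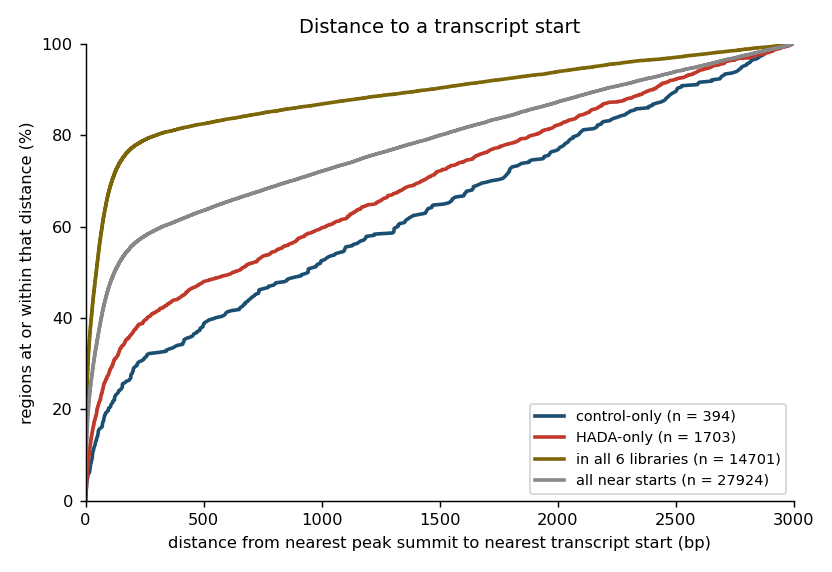
Cumulative share of regions (vertical axis, percent) by the distance in bp from the nearest peak summit to the nearest transcript start (horizontal axis), for control-only, HADA-only, shared and all regions near starts. The control-only curve is the lowest at 100 bp, at 20.3%, and the shared curve the highest, at 68.0%.

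The distance limit fell within a continuous range. The last 2 members inside it were near Gm49350 (2986 bp, pileups 15, 8 and 17 in control 1 to 3) and Gm63266 (2989 bp, pileups 16, 12 and 13). The first 2 control-only regions beyond it were near Pkig (3002 bp, pileups 24, 18 and 23) and Lcmt1 (3004 bp, pileups 14, 14 and 11). The pileups inside and outside the limit overlapped. The limit on presence was also narrow in places: 400 further regions near starts had a peak in 3 control lists and 1 HADA list, and 573 had a peak in 2 control lists and no HADA list.

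Most members were small peaks. Their median pileup was 19 in control 1, 20 in control 2 and 23 in control 3, and their median height over background was 11.3, 9.74 and 12.6. Shared regions had a median height of 50.3, 35.1 and 39.4. The HADA-only regions near starts were as small as the members, with 9.83, 10.5 and 9.67 in HADA 1 to 3. To ask how far below the reach of the HADA lists the members lay, the lowest pileup that each HADA library would have called was estimated from the local background of its nearest peak within 10 kb, or from the scaled control background where there was none. By this estimate, 337 of the 394 members (85.5%) were tall enough in their lowest control library to be called in each HADA library at the same height. With each list limited to an equal number of its strongest peaks, the share was 42.1% of 610 regions. The margin was mostly small. The lowest control height was 1.50 times the highest HADA limit in the median member, at least 2 times in 83 members and at least 3 times in 15. When the count also had to allow for Poisson sampling, with a joint chance of 0.95 of passing in all HADA libraries, 159 members remained (40.4%). This chance is that of a call in every HADA library, and says nothing of a loss from all of them at once.

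Which control library was tallest differed from the shared regions. Control 3 had the greatest height in 57.4% of members and in 26.6% of shared regions near starts, whereas control 1 was tallest in 26.9% of members and 69.5% of shared regions. Whether the makeup of control 3 has a part in the heights of the members was not tested.

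The tallest member was at Gm11956, a processed pseudogene (chr11:4182556-4183169), with pileups of 208, 212 and 389 in control 1 to 3. A HADA library would have called a pileup of 72, 50 or 49 there. The nearest protein-coding start, 3588 bp from a summit, was that of Osm, the gene of the cytokine oncostatin M. The next was in an intron of Arid3a, an AT-rich DNA-binding factor (chr10:79763998-79764465), with pileups of 124, 117 and 252 over HADA limits of 44, 37 and 39. In both, all control libraries were far above each limit.

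At Gga1, a clathrin adaptor of the Golgi (chr15:78763064-78763624), the pileups were 115, 113 and 174. At Hdc, histidine decarboxylase, which makes histamine (chr2:126442521-126442975), they were 107, 106 and 247. At Hdc the pileup of control 3 was more than 2 times that of control 1. The Hdc region lay in an open neighbourhood, with a local background of 54.4, 47.5 and 112 in control 1 to 3, and the HADA limits of 87, 54 and 50 were high as well.

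Further tall members with a coding start were at Med11, a Mediator subunit (pileups 100, 104 and 119), Ubald2 (88, 102 and 158) and Atp6v0c, a subunit of the vacuolar proton pump (84, 96 and 104). Those at Cd180, a Toll-like receptor homologue of B cells and myeloid cells (93, 93 and 109), and Creb3, a membrane-bound transcription factor (102, 89 and 114), were even over the control libraries. Those at Pkm, pyruvate kinase of glycolysis (100, 82 and 149), Lrrc8d, an anion channel subunit (87, 80 and 154), and Rab7, a GTPase of late endosomes (78, 74 and 119), were highest in control 3.

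Among members with only other gene types, ordered by the lowest control height like the coding ones above, Gm11956 was followed by AU019990 (chr2:132440837-132441665), whose pileups were 96, 105 and 166 over HADA limits of 37, 26 and 30. Gm11475 had 92, 91 and 192, and Gm33524 had 97, 91 and 131. Gm36459 had 100, 86 and 247, and Gm56721 had 92, 84 and 112. The nearest protein-coding starts of the last 4 were those of Ube2v1, Egr3, Dennd4a and Nr4a1, at 19871, 14688, 16129 and 4030 bp. Egr3 and Nr4a1 are immediate early transcription factors. Over the 195 members with no coding start within 3 kb, the median distance to the nearest coding start was 27491 bp.

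**Figure D2:**
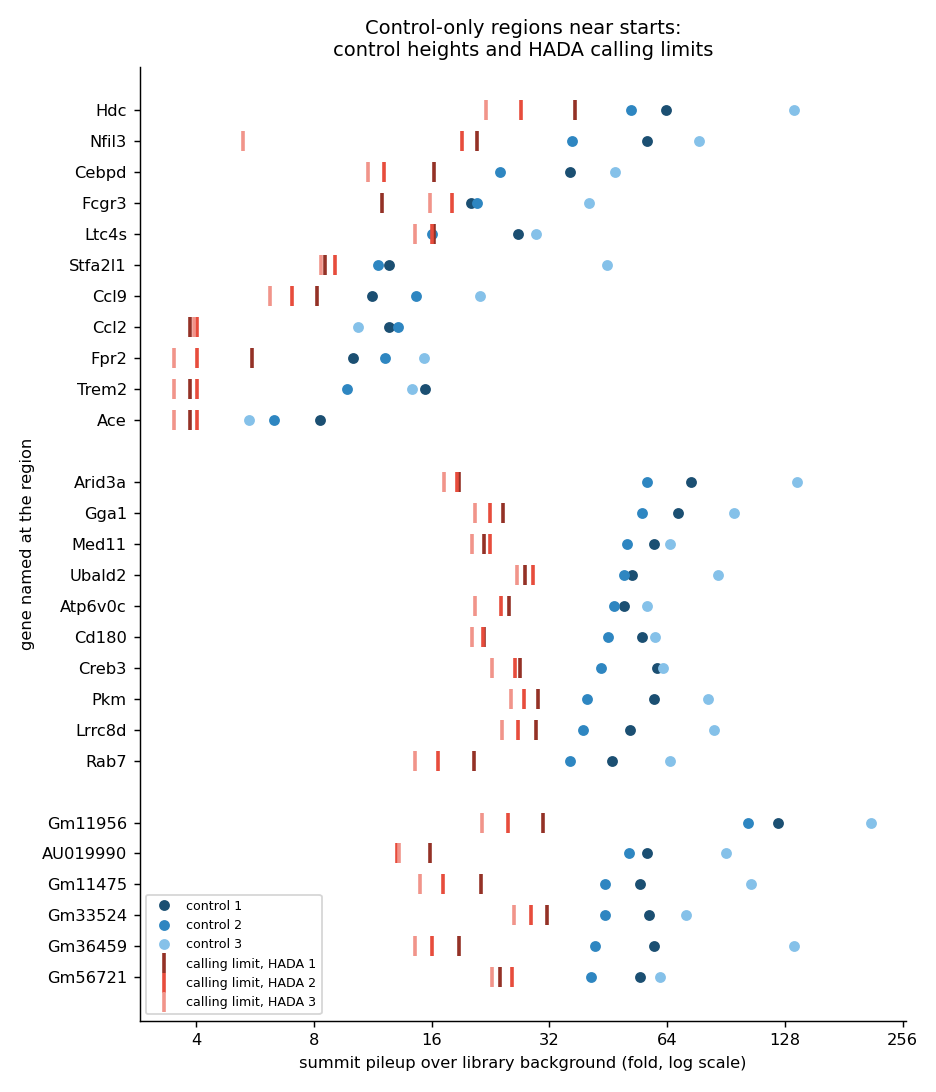
Summit pileup over library background (horizontal axis, fold, log scale) in control 1 to 3 (points) and the lowest height callable in HADA 1 to 3 (ticks) at the named members: 11 myeloid list genes at the top, tallest coding members in the middle, other gene types at the bottom. At Ltc4s the lowest point meets the highest tick, while at Gm11956 and Arid3a all points lie at least 3 times above it.

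The largest ratio of height to HADA limit was at a region near the lncRNA gene Gm32184 (pileups 56, 53 and 110 over limits of 13, 11 and 10), chosen here after its values were seen. A second member lay near the same gene. Gm59848 (87, 81 and 151 over 26, 15 and 15) and Sema4a, a semaphorin of immune cells (58, 36 and 82 over 12, 10 and 9), also exceeded 3 times the limit.

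Links to blood lineages were read from marker lists of 323 genes, which were chosen with earlier results of these data known. Of the 344 regions near starts of myeloid list genes, 12 were control-only (3.49%, exact binomial 95% interval 1.82 to 6.01), against the 1.41% of all regions near starts. Of the same 344, 11 were HADA-only (3.20%), against 6.10% of all regions near starts. At mature neutrophil genes 4 regions were control-only and 4 HADA-only (5.19% each). At myeloid transcription factors 2 were control-only (3.33%) and 4 HADA-only (6.67%). Counted over members, 12 of 394 were at myeloid list genes, beside 344 of all 27924 regions near starts. This count was 22 of 624 members without HADA 1, 20 of 610 with equal lists and 7 of 207 with summits within 1 kb. The share over all regions near starts was not computed for these settings. None of the 105 regions at lymphoid list genes was a member, and none of the 34 at erythroid, platelet or housekeeping genes. With 105 regions, the interval for the lymphoid share reached up to 3.45%, which includes the background. That for the 34 other regions reached 10.3% and includes it too. Intervals here cover counting error over regions, which are not replicates. The 12 members were 4 at mature neutrophil genes (among them Hdc, Stfa2l1 and Fpr2), 5 at monocyte and macrophage genes (Fcgr3, Ccl9, Ccl2, Trem2 and Ace), 2 at myeloid transcription factors (Nfil3 and Cebpd) and 1 on the list for eosinophils, basophils and mast cells (Ltc4s). No neutrophil granule gene was among them, out of 33 regions (interval up to 10.6%), and no dendritic cell gene, out of 18 (up to 18.5%). Both intervals include the background.

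**Figure D3:**
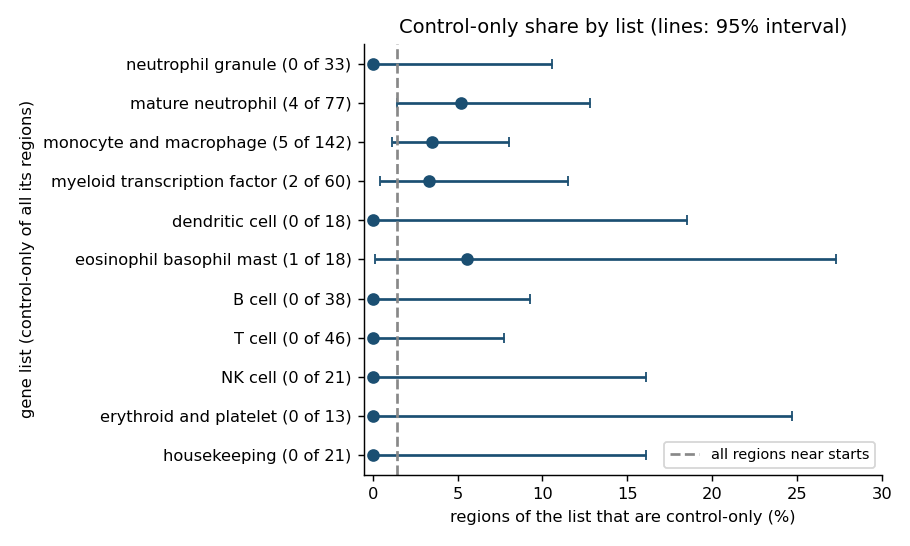
Share of the regions near starts of each gene list that were control-only (horizontal axis, percent), with 95% exact binomial intervals and the share over all regions as a dashed line. The myeloid lists with members lie between 3.33% and 5.56%. The neutrophil granule and dendritic cell lists are at 0, as are the B, T and NK cell lists. Only the interval of the mature neutrophil list lies above the dashed line, and narrowly (from 1.43%, against 1.41%).

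Of the transcription factors, Nfil3 is a basic leucine zipper factor induced in many immune cells. Its member lay 2678 bp upstream of the start (chr13:53139320-53140417) with pileups of 96, 75 and 141 over HADA limits of 49, 38 and 12. Cebpd, a C/EBP factor of activated myeloid cells, had a member 1937 bp downstream of the start (chr16:15707838-15708589) with 61, 49 and 86 over limits of 38, 24 and 25. In both genes every control library exceeded the limits.

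Among surface receptors, Fcgr3, a low-affinity IgG receptor, had pileups of 34, 43 and 74 over limits of 28, 36 and 36. The margin at Fcgr3 was therefore small, 1.11 times the highest limit in height. Fpr2, a formyl peptide receptor of phagocytes, had 17, 25 and 28 over limits of 13, 8 and 8. Trem2, a lipid-sensing receptor of macrophages, had 26, 20 and 26 over limits of 9, 8 and 8. Fpr2 and Trem2 were small peaks in an emptier neighbourhood.

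The chemokine genes Ccl2 and Ccl9, which attract monocytes and other myeloid cells, had members just upstream of their starts. Ccl2 (chr11:81926173-81926709, 56 bp upstream) had pileups of 21, 27 and 19 over limits of 9, 8 and 9. Ccl9 (chr11:83467972-83468370, 123 bp upstream) had 19, 30 and 39 over limits of 19, 14 and 14. Control 3 was the lowest at Ccl2 and the highest at Ccl9.

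Among enzymes and inhibitors, Ltc4s, leukotriene C4 synthase, had 45, 33 and 54 over limits of 38, 32 and 33, and its lowest height was 0.99 times the highest limit. Ace, the angiotensin-converting enzyme, which marks patrolling monocytes, had 14, 13 and 10 over limits of 9, 8 and 8. Stfa2l1, a cysteine protease inhibitor of neutrophils, had 21, 24 and 82, and the 50 bases at its summit had 2 copies, so its reads may be split with a related gene. Its peak was taller in control 3 than in both other control libraries by far.

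Some members at further genes known from myeloid cells were chosen here after their values were seen, and a gene known from lymphoid cells is given beside them. Cd33 had 2 members (55, 58 and 115 at the taller, 20, 19 and 32 at the other). The lncRNA gene Morrbid, known for the lifespan of short-lived myeloid cells, had 27, 38 and 66. Vsir, the checkpoint ligand VISTA, had 83, 73 and 94, and Lst1 had 78, 64 and 80. Clec5a (17, 15 and 25), Tarm1 (22, 17 and 35), Siglec1 (14, 14 and 25), Axl (22, 16 and 28) and Stab1 (17, 17 and 17) were small peaks. Klra2, of the Ly49 receptor family, had 18, 36 and 47. On the lymphoid side, Ms4a4b of T cells had 16, 20 and 12. At Ms4a4b the lowest height was under the HADA limits of 19, 19 and 21.

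A few members lay close together. There were 17 groups of 2 or 3 members within 50 kb, which held 35 members. They included 3 around Alas1, the first enzyme of heme synthesis, and pairs at Cd33, at Mrgpra2a and Mrgpra2b, at Gm32184 and at C2cd3. The Mrgpra2a (19, 36 and 62) and Mrgpra2b (21, 31 and 58) summits each had 2 copies, since these receptor genes are near-identical in places. By chromosome, members made up 0.806% (chromosome 8) to 2.08% (chromosome 13) of the regions near starts.

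Repeated sequence was less common in members than in control-only regions away from starts. The 50 bases at the summit had more than 1 exact copy in 33 members (8.38%), and 10 or more in 15. The share was 6.49% over all regions near starts, 4.06% over shared regions, 3.23% over HADA-only regions near starts and 24.1% over the 726 control-only regions away from starts. The share of the members depended on single libraries: it was 15.2% of 494 regions without HADA 3 and 14.4% of 603 without control 3, while that of all regions near starts was 6.47% in either case. Gm31166 had 21434 copies, Trim13 had 1250, Gm3507 had 1005, Fam118a had 963 and Mertk had 867. Mertk encodes a receptor by which macrophages take up dead cells, and its pileups were 14, 18 and 10. A vomeronasal receptor, Vmn1r21, had 342 copies.

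A row of snoRNA genes on chromosome 7 held 5 members, of which 4 had repeated summits: Gm22393 (26 copies), Gm22632 (51), Gm25085 (9) and Gm23286 (91). The region at Gm22632 was the widest of all members, at 10787 bp. Pileups at these 5 members were 9 to 11 in control 1, 15 to 34 in control 2 and 9 to 18 in control 3. Control 2 was thus the highest at each of them, and it was so in height over background too. Over all 33 members with repeated summits the median height was 7.11, 8.76 and 6.56 in control 1 to 3, and control 2 was tallest in 15 of them. Among the 361 members with unique summits the medians were 11.3, 9.74 and 12.6, and control 3 was tallest in 215. How reads with several matches were placed is not stated in the sources used here, and its part in these peaks was not tested.

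Of 12 motifs searched on both strands in the 201 bases at each summit, AP1 and CEBP were more common in members than in the other sets of regions near starts, and about as common as in control-only regions away from starts. AP1 (TGANTCA) was found in 47 members (11.9%, 95% interval 8.90 to 15.5), against 4.95% of all regions near starts, 4.70% of HADA-only and 3.86% of shared regions. CEBP (TTGCNNAA) was found in 67 (17.0%, interval 13.4 to 21.1), against 6.88%, 5.52% and 5.71%. Windows 1 kb to either side of the members held AP1 in 6.98% and CEBP in 7.99%. Among windows of 40 to 55% GC, the shares were 12.4% of members and 7.04% of all regions for AP1, and 19.1% and 9.60% for CEBP. Both were therefore higher at the summits than at their flanks and than at regions of like GC content, although the choice of members by group means that no test was run. Control-only regions away from starts held AP1 in 10.1% and CEBP in 17.4%, both inside the members' intervals. At least 1 of the 2 was in 107 members and both were in 7.

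Other motifs were near the background or below it. PU1 (GAGGAAGT) was in 5.08% of members and 3.71% of all regions, RUNX (TGTGGTT) in 7.36% and 5.68%, and IRF (GAAANNGAA) in 5.84% and 5.87%. NRF2 (TGACNNNGC) was in 8.88% and 9.09%, with 8 members that also held AP1, NFKB (GGGANTTCC) in 1.78% and 1.15%, and AGATAAG, the consensus of erythroid GATA factors, in 1.27% and 1.52%. SP (GGGCGG), which follows GC-rich promoters, was in 6.60% and 25.9%. ETS (CCGGAAGT) was in 0.254% and 2.23%, and EBF (CCCNNGGGA), the consensus of a B cell factor, in 2.54% and 5.30%. These gaps were smaller in windows of the GC range used above for AP1 and CEBP. There EBF was in 2.48% of members (interval 1.00 to 5.05) and 3.28% of all regions. SP was in 3.55% (interval 1.71 to 6.42) and 6.16%, and ETS in 0% (interval up to 1.30) and 0.912%. Each of these intervals includes the share over all regions in that GC range. The CTCF consensus was in 0 of 394 members, for which the interval reached 0.932%, and in 0.244% of all regions. A match is a run of letters and does not show that a factor was bound.

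**Figure D4:**
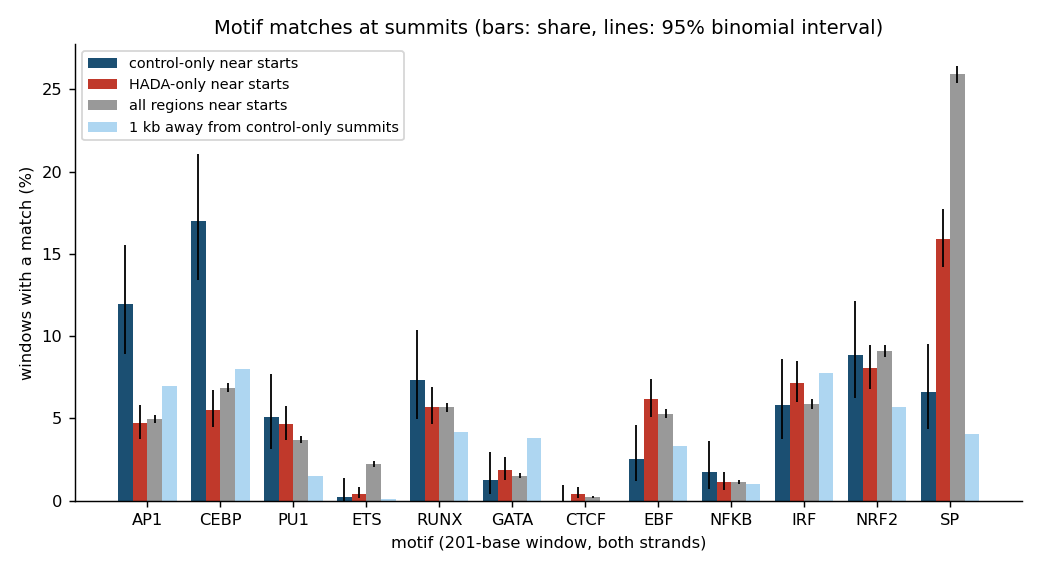
Share of 201-base windows with a match (vertical axis, percent) for 12 motifs, in control-only, HADA-only and all regions near starts, with 95% exact binomial intervals, and in windows 1 kb away from control-only summits. AP1 (11.9%) and CEBP (17.0%) stand above the other bars of their groups, and SP is lowest in the windows of the control-only regions and their flanks.

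Some genes with a control-only region also had other open regions. Of the 206 protein-coding genes of the members, 138 (67.0%) also had a shared region near a start, against 82.9% of all protein-coding genes with a region near a start. Of the 309 genes of other types, 93 (30.1%) had a shared region, against 59.6%. Over the members, 187 (47.5%) had at least 1 gene with a shared region, against 72.8% of all regions near starts. These backgrounds count the shared regions themselves, so they are high by construction. Of the 515 genes, 33 (6.41%) had a HADA-only region as well, among them Hdc, Dock8 and Lims1, against 7.37% of all genes with a region near a start.

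The shared regions at the members' genes were compared by log2 height, HADA minus control, centred on the median shared region of each library. Libraries of both groups differed by 0.40 in that median (log2, HADA higher), and changes are relative to it. These values come from the same libraries and the same contrast as the rule, so they too are a description. Of 270 such regions, 98 (36.3%) lay lower in all HADA libraries than in all control libraries, here called apart, and 62 (23.0%) lay higher in this way. The background over all shared regions near starts was 21.7% lower and 34.1% higher. The median difference was -0.13, against 0.07 over all shared regions. Control 3 and control 2 moved it most: without control 3 it was -0.03, against 0.12 over all shared regions, and without control 2 it was -0.23, against 0.02. Without centring, the median was 0.26 against 0.47, so the sign depends on the scaling. Centring shifts each region's difference by the same amount, so the gap between both medians is equal on both scales by construction. On that scale 52 regions were lower and 100 higher with the groups apart, or 19.3% and 37.0%, against a background of 7.84% and 51.2%.

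Shared regions at several myeloid genes of the members were lower in HADA. The most negative differences of the 270 regions were at the lncRNA genes Gm37800 (-2.33) and Gm38855 (-2.29), chosen here after their values were seen. At Hdc, the shared region 115 bp upstream of a start had heights of 62.2, 38.5 and 95.6 in control 1 to 3 and 30.8, 20.1 and 12.8 in HADA 1 to 3, a difference of -2.01 on the centred log2 scale. At Cd33, the one 5 bp upstream of a start had 106, 79.4 and 180 in control and 77.3, 40.2 and 34.3 in HADA (-1.67). At Cebpd it had 135, 90.6 and 231 in control and 101, 51.7 and 46.2 in HADA (-1.58). In these, HADA 1 was the highest of the HADA libraries and control 3 the highest of the controls. The groups were apart for Hdc and Cd33 with or without centring, and for Cebpd only with centring.

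Nfil3 (133, 90.6 and 164 in control, 76.5, 61.8 and 58.9 in HADA, difference -1.34) and Fcgr3 (114, 90.1 and 163 in control, 82.0, 74.3 and 70.8 in HADA, difference -1.05) went the same way. Klra2 did so too, with 23.7, 16.1 and 44.8 in control and 10.7, 6.53 and 6.60 in HADA (-2.13). At Lst1 (-0.55, and -0.16 without centring) the groups were apart only with centring.

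Other genes of the members had shared regions whose groups overlapped or that were higher in HADA. The Cd180 promoter had 28.4, 20.0 and 16.9 in control and 72.6, 67.3 and 68.6 in HADA (1.31), although its intron held a control-only region. At Ltc4s the shared region had 77.6, 55.5 and 48.1 in control and 122, 121 and 118 in HADA (0.63). At Vsir, a shared region 2723 bp downstream of a start was higher with the groups apart (0.37, and 0.77 without centring). In the Vsir region 21 bp downstream of a start (-0.02) the groups overlapped. At Arid3a (0.13), Med11 (-0.05) and Ubald2 (0.01) the groups overlapped after centring. Without centring, each HADA library was above each control library at Med11 (0.35) and Ubald2 (0.41), while the groups still overlapped at Arid3a (0.53). A control-only region therefore did not go with a lower promoter at each gene.

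Several cell-type lists moved with the groups in the same shared regions, but not all: the dendritic cell list had a median difference of -0.01. The 192 regions at myeloid list genes had a median difference of -0.95, with 130 (67.7%) lower and the groups apart against a background of 21.7%. Without centring the median was -0.56, with 82 (42.7%) lower and apart against 7.84%. The myeloid lists differed. Medians were -1.86 at mature neutrophil and -1.12 at monocyte and macrophage genes, and -1.47 and -0.72 without centring. The 42 regions at myeloid transcription factors had -0.40, but -0.0007 without centring, with 7.14% lower and apart. Without centring the dendritic cell list was at 0.39 and the list for eosinophils, basophils and mast cells at 0.16. The 44 at lymphoid list genes had a median of 0.51, and 0.91 without centring. The 12 at B cell genes had a median of 1.57 with 11 of 12 higher and apart, against a background of 34.1%, and without centring 12 of 12 against 51.2%. The 6 at erythroid and platelet genes had a median of 0.70, and 1.09 without centring. Housekeeping genes had a median of -0.19, and 0.21 without centring. The part of cell makeup in the control-only regions was not tested.

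**Figure D5:**
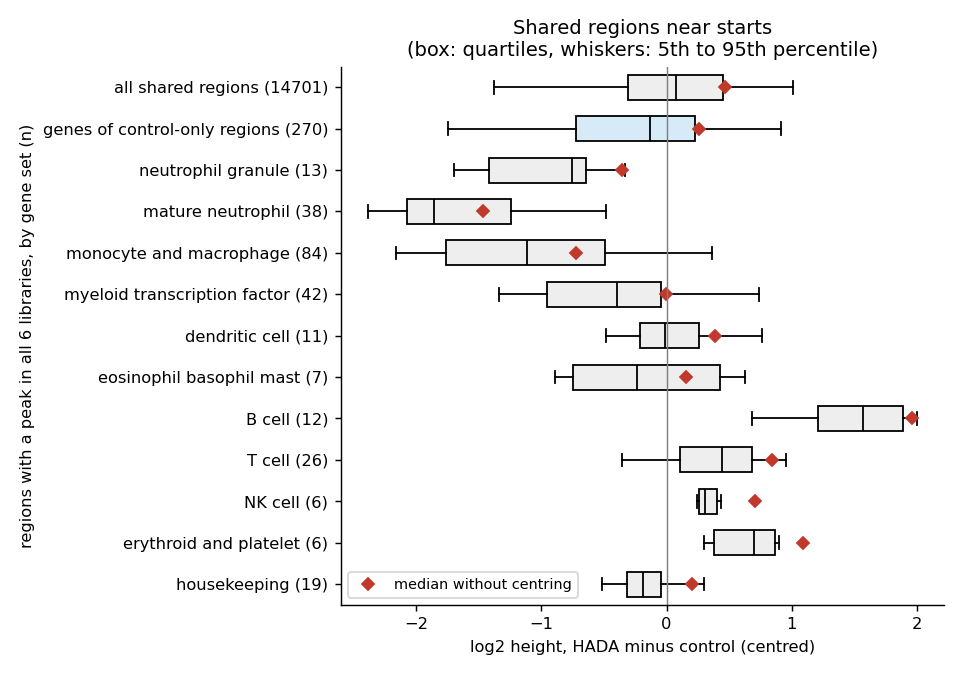
Difference in log2 height (horizontal axis, HADA mean minus control mean, centred) of shared regions near starts, for all of them, for those at genes of control-only regions and for each gene list, as boxes of quartiles with whiskers from the 5th to the 95th percentile and red diamonds for medians without centring. The box for genes of control-only regions (median -0.13) lies left of that of all shared regions (0.07) and right of the medians of the mature neutrophil (-1.86) and the monocyte and macrophage list (-1.12).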

How the data were processed

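Chromatin accessibility was assayed by ATAC-seq in 3 control and 3 HADA libraries, grouped by the labels. Per the submitters' processing notes, the authors used Trimmomatic, Bowtie2, Picard and MACS2 on GRCm39; options are not given in the sources used here. The deposited lists, called per library, hold for each peak the fold (ratio) of its summit over local background, its p-value and q-value as −log10, and a score. Only p-value and fold were used for heights: the whole-number pileup and local background were solved from them, which returned the deposited values for 100% of peaks. The library background was the lowest local background. Control libraries held 39769, 39176 and 32533 peaks on the chromosomes used, and HADA libraries 42911, 42500 and 44102. Read totals were not used here.

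Starts came from GENCODE M39, and 0 peaks ran past a sequence end. Merging, distances, exact copies of 50 bases on both strands, and motifs were computed with Python 3.11.15 (NumPy 2.4.6, pandas 2.3.3, SciPy 1.17.1, Numba 0.67.0) and tested on simulated data. Gene lists and members were chosen with earlier results of these data known. Named were members at list genes (1 of them is not reported here), the 12 tallest with a coding start and the 6 tallest with other types only (unique summits), the 5 with most copies and 2 to each side of the distance limit. Genes are named by the nearest coding start within 3 kb, else the nearest start. Alternatives were other merging, peak and distance limits, coding starts only, and leaving out each library. Intervals are exact binomial.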

Additional observations from a re-analysis of the deposited data

How the results depend on the processing

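No paired analysis was possible because the labels tie no control library to a HADA library and no test was run; with equal groups, pairing by number would leave each mean difference as it is. The number of members, 394, was 610 when each list was limited to an equal number of its strongest peaks, 207 with summits within 1 kb and 199 with coding starts only; leaving out 1 library gave 464 to 624, and 624 without HADA 1. With equal lists, 241 of the 394 were still members (61.2%), and with a −log10 q of at least 5, 226 (57.4%). The share with a coding start was 47.9 to 53.1% without 1 library, and 100% by construction with coding starts only. The share with repeated summits was 15.1% with equal lists and 7.54 to 15.2% without 1 library: 12.2% without control 1, 14.4% without control 3 and 15.2% without HADA 3. The share tall enough for the HADA lists was 75.8% at a −log10 q of at least 5, 42.1% with equal lists, 92.1% by the mean control height, 40.4% with the Poisson allowance (chosen after seeing the data) and 80.8 to 87.3% without 1 library. The AP1 share was 4.82% within 50 bp of the summit, where all regions near starts had 2.48%, and 9.12 to 12.7% without 1 library. Members at myeloid list genes numbered 20 with equal lists, 7 within 1 kb and 15 to 22 without 1 library (22 without HADA 1). The median of the shared regions at the members' genes was 0.26 without centring and -0.23 to -0.03 without 1 library (-0.23 without control 2, -0.03 without control 3), both chosen after seeing the data. The other settings stayed within 1.5 times of a count or within the interval of a share. The causes were not tested. A pileup of 8 or 9 was the least that a HADA library called over its background, and the lowest members had 7 or 8 in a control library.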

Other observations

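A miRNA start lay within 3 kb of 10 members (2.54%, exact binomial 95% interval 1.22 to 4.62), against 2.13% of all regions near starts. A snoRNA start lay near 7 (1.78%, interval 0.717 to 3.63), against 0.938%. Both intervals include the background. Mir3092 had pileups of 20, 32 and 26 in control 1 to 3 with a summit 343 bp from its start, and Mir326 had 28, 19 and 32 at 2291 bp. The member at Mir1191b had 17, 14 and 18. These 3 summit sequences were unique.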
